A study of Mus with 10 samples.

Results

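MAP kinases of the ERK, JNK and p38 families and the GADD45 proteins, which are stress-induced regulators of the p38 and JNK branches, were examined at the transcript level in liver type 1 innate lymphoid cells (ILC1s) with and without the receptor NKp46. The genes were chosen by name, with earlier results of these data known. They were the ERK gene Mapk3, the JNK genes Mapk8 and Mapk9, the p38α gene Mapk14 and its substrate kinase gene Mapkapk2. The upstream kinase gene Map3k4, with Gadd45a, Gadd45b and Gadd45g, completed the set. These are 9 of the 24564 genes in the count table, and all 9 passed the filter on low counts, as did 11463 genes in all.

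The study asked what NKp46, the activating receptor encoded by Ncr1, contributes to ILC1s. Bulk RNA-seq was run on ILC1s sorted from the liver, in 5 libraries of Ncr1+/+ and 5 of Ncr1gfp/gfp cells. Ncr1+/+ mice were C57BL/6. Ncr1gfp/gfp mice, on the same background, carry gfp in place of Ncr1 on both alleles, in every cell type. Per the methods, mice were 6 to 8 weeks old and of either sex, and no treatment is given for either group. The ILC1 gate was lineage-negative, NK1.1+, CD49b- and CD49a+. Ncr1+/+ cells were gated with an NKp46 antibody, whereas Ncr1gfp/gfp cells were gated by GFP. The libraries are called RNA pools in the study, and nothing ties a library to a single mouse, so p-values measure the spread between these libraries.

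MAP kinases are the last step of a relay in which a MAP kinase kinase kinase phosphorylates a MAP kinase kinase, which in turn phosphorylates the MAP kinase. In lymphocytes, p38 and JNK respond to stress and to cytokines such as IL-18 and IL-12, and p38 acts partly through the kinase MK2, encoded by Mapkapk2, to stabilise cytokine mRNAs. GADD45 proteins bind and activate the MAP kinase kinase kinase MEKK4, encoded by Map3k4, and Gadd45b and Gadd45g are induced in T cells by IL-12 and IL-18. Activity of these kinases is set by phosphorylation, which RNA-seq does not measure, so that the values below concern transcripts alone.

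Libraries held 17996935 to 22623133 counts in Ncr1+/+ and 15796253 to 21975879 in Ncr1gfp/gfp. A count of 3 corresponded to between 0.132 and 0.1905 CPM (read counts scaled to a common library size with TMM factors), a limit that covers counting error only. Ncr1, the targeted gene, was at 2144, 2072, 2083, 1913 and 1936 CPM in Ncr1+/+ replicates 1 to 5, and at 340.0, 356, 141, 172 and 285 CPM in Ncr1gfp/gfp replicates 1 to 5. Ncr1 reads were thus reduced to a mean of 12.7% of Ncr1+/+ and were not absent. ILC1 markers were present at similar summed levels, 3989 to 4251 CPM in Ncr1+/+ and 3973 to 4271 CPM in Ncr1gfp/gfp. Of 7 tested ILC1 markers, Itga1, which encodes CD49a, rose (log2 fold change 0.32) and Il7r, the IL-7 receptor gene, fell (-0.97). Summed NK cell markers were higher without overlap in Ncr1gfp/gfp (141 to 224 against 104 to 128 CPM), as were T cell markers (665 to 845 against 512 to 614 CPM) and the myeloid list (1671 to 1783 against 1340 to 1500 CPM). The genes past the test in those lists were Itgam (0.96) in the NK list, Cd3e (1.88), Cd3g (0.45), Cd8a (1.53) and Cd28 (-0.94) in the T cell list, and Itgax (0.28) in the myeloid list. Of 7 tested myeloid genes, 5 were lower and 2 higher in Ncr1gfp/gfp (median log2 fold change -0.31), so that list did not rise as a whole. Of 7 tested NK genes 6 were higher and 1 lower, and of 6 tested T cell genes 5 were higher and 1 lower. Hepatocyte markers summed to 136 to 189.6 CPM in Ncr1+/+ and 123 to 216 CPM in Ncr1gfp/gfp, endothelial markers to 113 to 147 and 128 to 151 CPM, and B cell markers to at most 5.99 CPM. In these 3 lists, only 4 hepatocyte, 2 endothelial and 1 B cell genes were tested. None of them passed with edgeR or DESeq2, and 1 had an unadjusted p under 0.05 with edgeR (Apoa1 of hepatocytes). Most of the T cell sum was Cd3g (501 and 687 CPM), most of the myeloid sum Itgax (1401 and 1707 CPM) and most of the hepatocyte sum Trf (138 and 135 CPM; means of Ncr1+/+ and Ncr1gfp/gfp). Of the defining markers of other cells, means were at most 21.1 CPM for Cd3e, 10.2 CPM for the NK cell gene Eomes and 3.85 CPM for the Kupffer cell gene Clec4f. Eomes was a small part of the NK sum, whose mean was 111 CPM in Ncr1+/+ and 171 CPM in Ncr1gfp/gfp. Klra4 and Lyve1 were at 0 in all 10 libraries. The part of these other cell types in the results was not tested.

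The transcripts of the kinases Mapk3, Mapk8, Mapk9, Mapk14 and Map3k4 had log2 fold changes of 0.01 to 0.10 between the genotypes, none past the test, whereas the 3 GADD45 transcripts were at 70.1% to 73.2% of their Ncr1+/+ mean in Ncr1gfp/gfp ILC1s. Of these 3, Gadd45b passed the test across all genes (edgeR quasi-likelihood test with Benjamini-Hochberg adjustment). Mapkapk2 lay between the other kinases and the GADD45 genes, at 85.4% of its Ncr1+/+ mean, and did not pass.

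**Figure D1:**
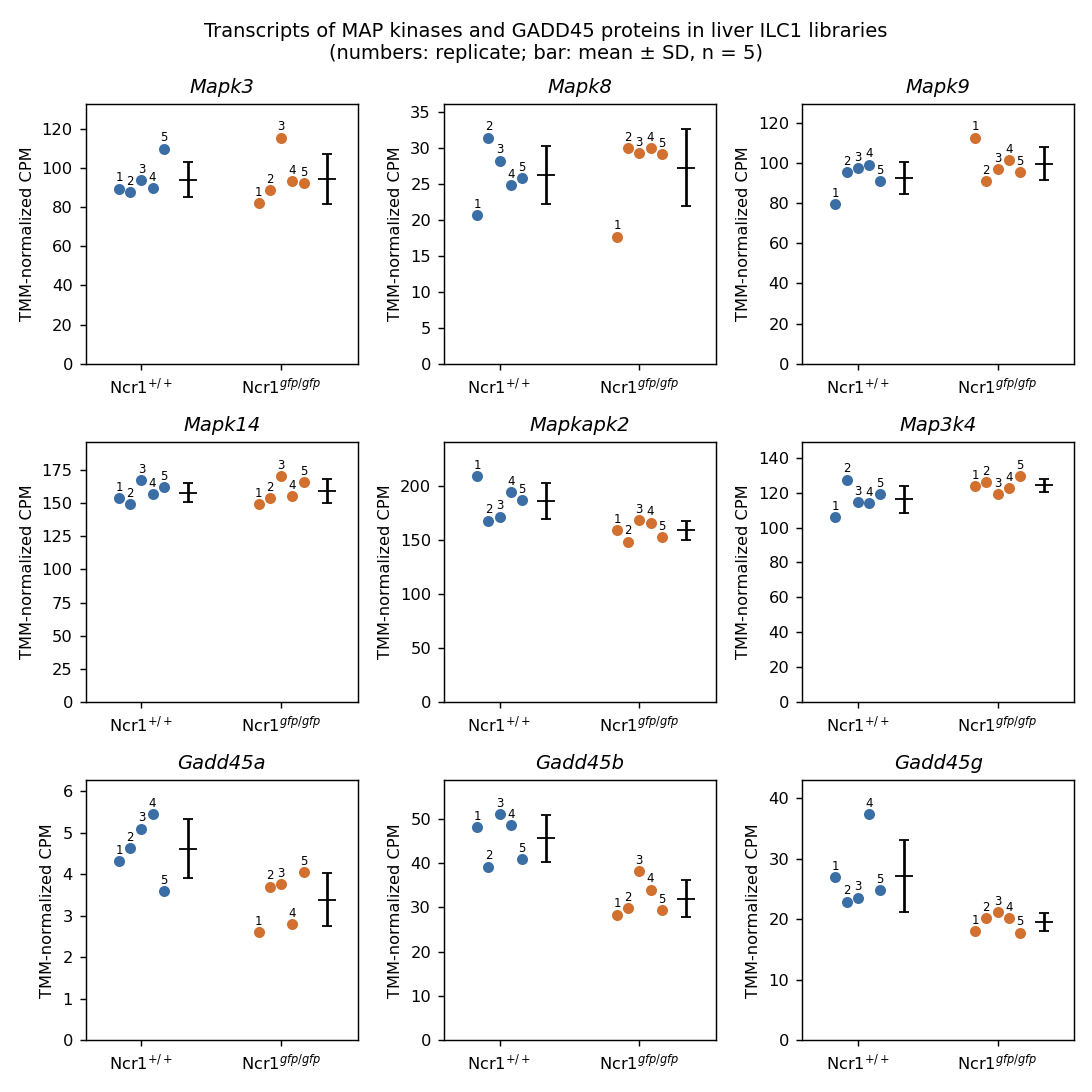
TMM-normalized CPM (y axis, from 0) of each member in the 5 Ncr1+/+ (blue) and 5 Ncr1gfp/gfp (orange) libraries, with replicate numbers and mean ± SD. The points of Gadd45b and Gadd45g do not overlap between genotypes (39.2 to 51.0 against 28.3 to 38.2 CPM, and 22.9 to 37.3 against 17.8 to 21.2 CPM), whereas those of the other 7 genes do.

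Across the table, 1 of the 9 members passed an adjusted p of 0.05, beside 1.35% of the 11463 tested genes. With the added requirement of a fold above 1.5 or below 0.7, edgeR called 0 of 9 members and 0.733% of all tested genes. DESeq2, the edgeR likelihood ratio test and limma-voom also called 0 of 9 at that fold. At an unadjusted p under 0.05, 3 of 9 members were lower in Ncr1gfp/gfp (Gadd45b, Gadd45g and Mapkapk2), beside 5.91% of all genes. CPM values did not overlap and were lower in Ncr1gfp/gfp for 2 of 9 members, beside 1.82% of all genes. As the members were chosen with earlier results of these data known, these shares describe the members and test no excess. The median log2 fold change was 0.01 over the members and 0.00 over all tested genes.

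Gadd45b encodes the GADD45 protein that is induced by NF-κB and by inflammatory cytokines. It was at 47.99, 39.2, 51.0, 48.5 and 40.8 CPM in Ncr1+/+ replicates 1 to 5. In Ncr1gfp/gfp replicates 1 to 5 it was at 28.3, 29.7, 38.2, 34.0 and 29.3 CPM. Every Ncr1gfp/gfp library lay below the lowest Ncr1+/+ library, with Ncr1gfp/gfp replicate 3 nearest to it. The means were 45.5 ± 5.20 and 31.9 ± 4.14 CPM (SD, n = 5 each), resting on 446 to 1020 counts a library. Gadd45b fell by 0.51 on the log2 scale (SE 0.11, 95% interval -0.73 to -0.29, edgeR adjusted p = 0.0139). The fitted fold of 0.702 lay just outside the limit of 0.7, so that the gene was not counted among the 84 called genes. It ranked 83rd of the tested genes by p. Without Ncr1+/+ replicate 3 the adjusted p was 0.0567 at a log2 fold change of -0.47, and without Ncr1+/+ replicate 4 it was 0.0504 at -0.49. Both libraries are the highest in Gadd45b.

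Gadd45g encodes a family member that, like Gadd45b, is linked to interferon-γ production by T helper 1 cells. Its level was 27.0, 22.9, 23.5, 37.3 and 24.8 CPM in Ncr1+/+ replicates 1 to 5. In Ncr1gfp/gfp it was 18.0, 20.2, 21.2, 20.1 and 17.8 CPM. The groups did not overlap, although the gap between the nearest libraries was small, and Ncr1+/+ replicate 4 stood above the other libraries of its group. The means were 27.1 ± 5.93 and 19.5 ± 1.48 CPM (SD, n = 5 each). The log2 fold change was -0.48 (SE 0.13, 95% interval -0.75 to -0.20) and did not pass the test (edgeR adjusted p = 0.0807). It passed with DESeq2 (adjusted p = 0.0361), with the edgeR likelihood ratio test (0.0366) and without a filter on low counts (0.0462). Without Ncr1+/+ replicate 4 the log2 fold change was -0.33, with an edgeR adjusted p of 0.268.

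Gadd45a, the p53-inducible member of the family, was the least abundant. It was at 4.32, 4.63, 5.10, 5.45 and 3.59 CPM in Ncr1+/+ replicates 1 to 5, and at 2.60, 3.70, 3.76, 2.80 and 4.05 CPM in Ncr1gfp/gfp replicates 1 to 5. Of the Ncr1gfp/gfp libraries, 2 lay below the lowest Ncr1+/+ library, and 4 Ncr1+/+ libraries lay above the highest Ncr1gfp/gfp library. With 41 to 108 counts a library, the log2 fold change of -0.45 had an SE of 0.27 and a 95% interval of -1.01 to 0.12 (edgeR adjusted p = 0.579). A difference of the size seen for Gadd45b and a difference of 0 both lie within it. In the table, Gadd45a overlaps E230016M11Rik on the other strand, a gene with 6 to 32 counts a library. As the library kit does not mark strand, reads in the overlap cannot be assigned to either gene.

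The composition of the GADD45 family did not differ detectably between the genotypes. Per kilobase of exon, Gadd45b was above Gadd45g and Gadd45g above Gadd45a in 10 of 10 libraries. The share of the family total was 55.6% ± 4.06 in Ncr1+/+ and 54.7% ± 2.03 in Ncr1gfp/gfp for Gadd45b, 38.5% ± 4.23 and 39.3% ± 1.71 for Gadd45g, and 5.84% ± 0.70 and 6.03% ± 1.18 for Gadd45a (SD, n = 5 each). The summed level was 64.8 ± 8.47 CPM per kilobase in Ncr1+/+ and 46.0 ± 4.56 in Ncr1gfp/gfp. Within-library ratios, which do not depend on normalization, were compared between genotypes with two-sided exact permutation tests, 6 ratios in all, of which 5 are reported here. The mean log2 ratio of Gadd45b to Gadd45a was 3.30 ± 0.19 in Ncr1+/+ and 3.24 ± 0.31 in Ncr1gfp/gfp. The difference of -0.06 had a 95% interval, from inverting the exact test, of -0.47 to 0.31. For Gadd45g to Gadd45a the difference was -0.004 (interval -0.42 to 0.41), and for Gadd45g to Gadd45b it was 0.06 (interval -0.23 to 0.34). All 3 had an exact p of 0.976 after adjustment over the 6 ratios. These intervals leave room for moderate shifts in either direction.

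Map3k4 encodes the kinase that GADD45 proteins activate. It was at 106, 128, 114, 114 and 119 CPM in Ncr1+/+ replicates 1 to 5, and at 124, 126, 119, 122 and 129.7 CPM in Ncr1gfp/gfp replicates 1 to 5. The Ncr1gfp/gfp libraries formed a narrow band inside or just above the range of Ncr1+/+. The log2 fold change was 0.10 (SE 0.06, 95% interval -0.04 to 0.23, edgeR adjusted p = 0.635). Ratios of each GADD45 transcript to Map3k4 were added after these values had been seen. The log2 ratio of Gadd45b to Map3k4 was -1.36 ± 0.25 in Ncr1+/+ and -1.97 ± 0.22 in Ncr1gfp/gfp, a difference of -0.61 (interval -0.96 to -0.27, exact p = 0.0159). For Gadd45g to Map3k4 the difference was -0.55 (interval -0.95 to -0.19), with an exact p of 0.00794, the smallest that 5 against 5 libraries allow. For Gadd45a to Map3k4 it was -0.55 (interval -0.96 to -0.13, exact p = 0.0238). Each had an exact adjusted p of 0.0238 over the 3 ratios. Without Ncr1+/+ replicate 1 and Ncr1gfp/gfp replicate 3, the libraries highest in hepatocyte markers, the exact adjusted p of the Gadd45a ratio was 0.0571. As these ratios share one denominator and were chosen for what the values showed, they describe the size of the gap between the GADD45 genes and Map3k4 and are no independent evidence of it.

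**Figure D2:**
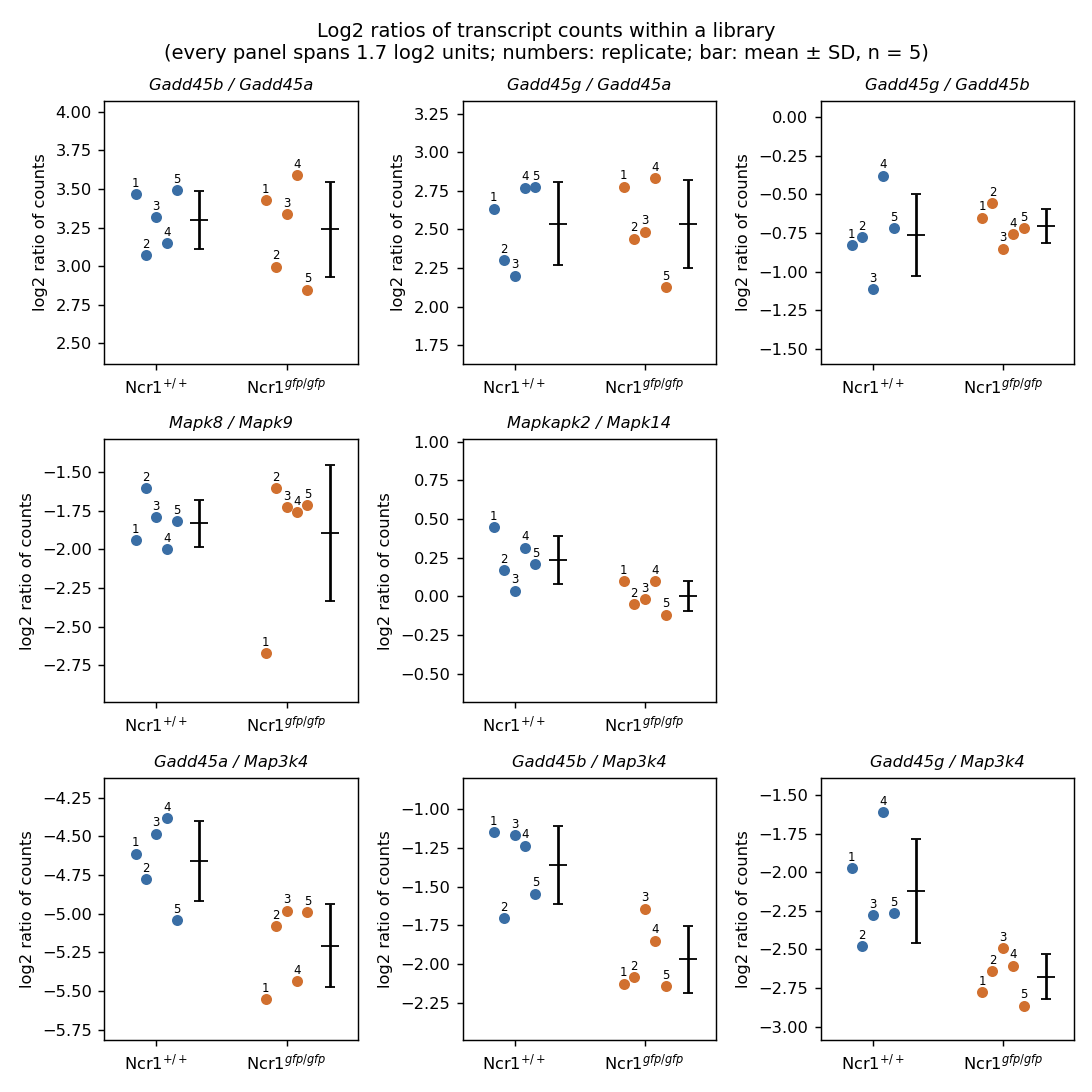
Log2 ratio of the counts of 2 genes within each library (y axis, the same span in every panel) for Ncr1+/+ (blue) and Ncr1gfp/gfp (orange), with replicate numbers and mean ± SD (n = 5). The 3 GADD45-to-Map3k4 ratios in the bottom row were lower in Ncr1gfp/gfp by 0.55 to 0.61, whereas the ratios among GADD45 genes in the top row differed by at most 0.06.

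Mapk14 encodes p38α, the main p38 kinase downstream of MEKK4. Its transcript was at 154, 149.5, 168, 157 and 162 CPM in Ncr1+/+ replicates 1 to 5, and at 149, 154, 171, 156 and 166 CPM in Ncr1gfp/gfp replicates 1 to 5. The ranges nearly coincided. The log2 fold change was 0.01 (SE 0.06), with a 95% interval of -0.12 to 0.14 (edgeR adjusted p = 0.973), so a fold change beyond 0.923 to 1.10 lay outside the interval. Mapk14 made up 99.5% to 100% of the summed p38 level per kilobase in the 10 libraries. Mapk13 had no read in any library, and Mapk11 and Mapk12 reached at most 0.111% and 0.476% of that sum.

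Mapkapk2 encodes MK2, which p38α activates. It was at 209.9, 168, 172, 195 and 187 CPM in Ncr1+/+ replicates 1 to 5, and at 159.7, 149, 169, 166 and 153 CPM in Ncr1gfp/gfp replicates 1 to 5. All but 1 of the Ncr1gfp/gfp libraries lay below the lowest Ncr1+/+ library, so that the groups met at 168 and 169 CPM. The means were 187 ± 17.0 and 159 ± 8.52 CPM (SD, n = 5 each). The log2 fold change of -0.23 (SE 0.07, 95% interval -0.37 to -0.09) did not pass the edgeR test (adjusted p = 0.112), whereas with DESeq2 the adjusted p was 0.0448. The log2 ratio of Mapkapk2 to Mapk14 was 0.24 ± 0.16 in Ncr1+/+ and 0.00 ± 0.09 in Ncr1gfp/gfp. The difference of -0.23 (interval -0.43 to -0.06) had an exact p of 0.0238 and an exact adjusted p of 0.143 over the 6 ratios.

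The JNK genes did not differ detectably. Mapk9, which encodes JNK2, was at 79.4, 95.7, 97.5, 99.3 and 91.0 CPM in Ncr1+/+ replicates 1 to 5 and at 113, 91.2, 97.0, 102 and 95.4 CPM in Ncr1gfp/gfp replicates 1 to 5. Its log2 fold change was 0.10 (95% interval -0.05 to 0.26, edgeR adjusted p = 0.687). Mapk8, which encodes JNK1, was at 20.6, 31.4, 28.2, 24.8 and 25.8 CPM in Ncr1+/+ and at 17.7, 29.98, 29.3, 29.98 and 29.1 CPM in Ncr1gfp/gfp. Replicate 1 was the lowest library for Mapk8 in both groups, and Ncr1gfp/gfp replicate 1 was at the same time the highest of all libraries for Mapk9. The log2 fold change of Mapk8 was 0.06 (95% interval -0.24 to 0.35, edgeR adjusted p = 0.938). Mapk9 held 81.3% ± 1.59 of the JNK level per kilobase in Ncr1+/+ and 81.7% ± 3.96 in Ncr1gfp/gfp (SD, n = 5 each), and Mapk10 at most 0.209% in any library. The log2 ratio of Mapk8 to Mapk9 differed by -0.06 (interval -0.51 to 0.29, exact adjusted p = 0.976).

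Mapk3 encodes ERK1. It was at 89.4, 87.5, 93.8, 89.5 and 109.8 CPM in Ncr1+/+ replicates 1 to 5, and at 81.9, 88.7, 115, 93.1 and 92.4 CPM in Ncr1gfp/gfp replicates 1 to 5. Each group held 1 high library, Ncr1+/+ replicate 5 and Ncr1gfp/gfp replicate 3, and the other 8 overlapped closely. The log2 fold change was 0.01 (95% interval -0.18 to 0.19, edgeR adjusted p = 0.992).

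Compared per kilobase of exon over all 10 libraries, the members spanned a wide range of levels. Mapkapk2 was the highest at 60.2 ± 6.68 CPM per kilobase (SD over 10 libraries), followed by Mapk3 at 53.1 ± 5.87, Mapk14 at 41.8 ± 2.00 and Gadd45b at 30.6 ± 6.65. Map3k4 at 22.1 ± 1.32, Gadd45g at 21.6 ± 5.31 and Mapk9 at 20.2 ± 1.79 formed a middle group whose ranges overlapped, and Gadd45g was above Mapk9 in 5 of 10 libraries. Mapk8 at 4.58 ± 0.77 and Gadd45a at 3.27 ± 0.75 were the lowest, with Mapk8 higher in 9 of 10 libraries. Only between Mapk3 and Mapk14, and between Mapk9 and Mapk8, did the ranges of neighbours in this order stay apart. Mapkapk2 and Mapk3 lay above 91.7% and 90.1% of tested genes by this measure, and Gadd45a above 23.2%.

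**Figure D3:**
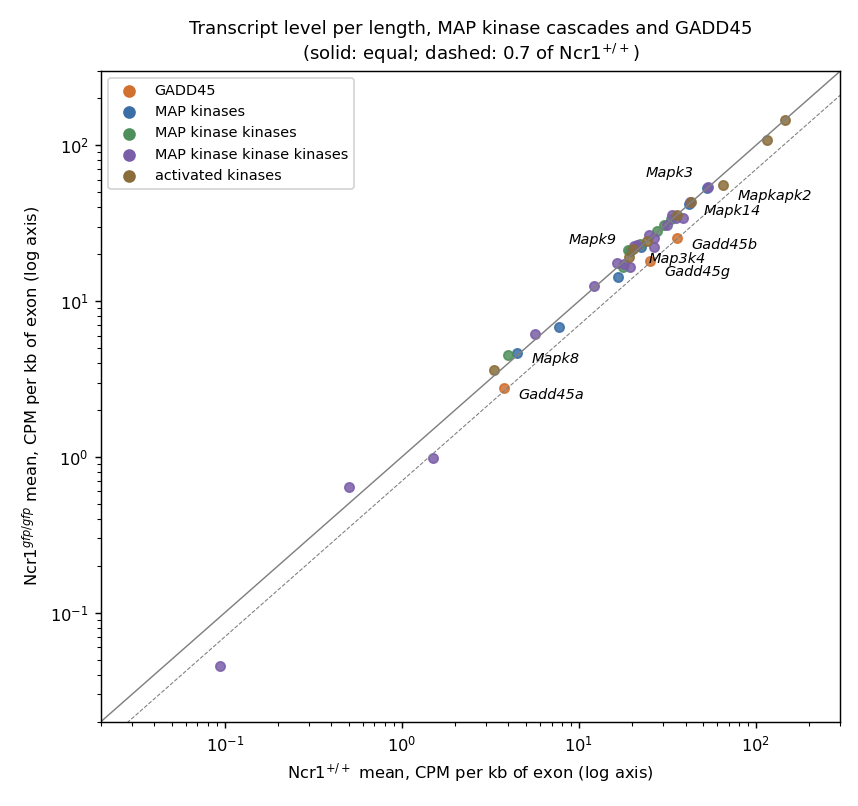
Mean level in CPM per kilobase of exon in Ncr1+/+ (x axis) against Ncr1gfp/gfp (y axis), both logarithmic, for tested GADD45, MAP kinase, MAP kinase kinase, MAP kinase kinase kinase and MAP kinase-activated kinase genes, with the 9 members named. The 3 GADD45 genes lie near the dashed line at 0.7 of the Ncr1+/+ level, at 70.1% to 73.2%, whereas Mapk3, Mapk8, Mapk9, Mapk14 and Map3k4 lie near the line of equality.

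No other gene of the kinase cascades passed the test. Of 67 genes for MAP kinases, the 2 tiers of kinases above them, the kinases they activate and their scaffolds, 54 were tested. At an adjusted p of 0.05, edgeR passed 0 of the 54, limma-voom and the likelihood ratio test also 0, and DESeq2 1 (Mapkapk2). At an unadjusted p under 0.05 there were 4 of 54, beside 11.4% of all genes. They were Mapkapk2, Map3k2 (log2 fold change 0.14), Map3k8 (-0.27) and Map3k14 (-0.21), named after their values were seen. The median log2 fold change of the 54 was 0.01. The genes with the highest level per kilobase in their tier were Mapk3 among MAP kinases and Map2k2, an ERK activator, at 33.4 CPM per kilobase among MAP kinase kinases. In the other tiers they were Map3k1, a JNK and NF-κB pathway kinase, at 53.99 and Rps6ka1, an ERK-activated kinase, at 145 CPM per kilobase. Their log2 fold changes were 0.02 for Map2k2, 0.01 for Map3k1 and 0.01 for Rps6ka1.

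The genotypes differed at the receptor end of the IL-18 pathway. Of 15 genes from the IL-18 receptor to p38 and MK2, 2 passed with edgeR, both lower, beside 1.35% of all tested genes. The other 13 did not pass. With DESeq2, 3 passed, Mapkapk2 being the added gene. Il18r1, which encodes the ligand-binding chain, fell from 154 ± 15.8 to 72.0 ± 19.0 CPM (SD, n = 5 each; log2 fold change -1.10, SE 0.13, edgeR adjusted p = 5.59e-05). Il18rap, which encodes the signalling chain, fell from 442 ± 45.3 to 291 ± 51.3 CPM (log2 fold change -0.60, SE 0.10, edgeR adjusted p = 0.00145). IL-18R1 was picked out in the study on these samples, so its direction here is not independent evidence. By flow cytometry the study also reported less IL-18R1 protein on Ncr1gfp/gfp ILC1s. After IL-18 treatment it reported less phosphorylated P38 in these cells, a measure that transcripts do not give. The median of the list was -0.03.

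**Figure D4:**
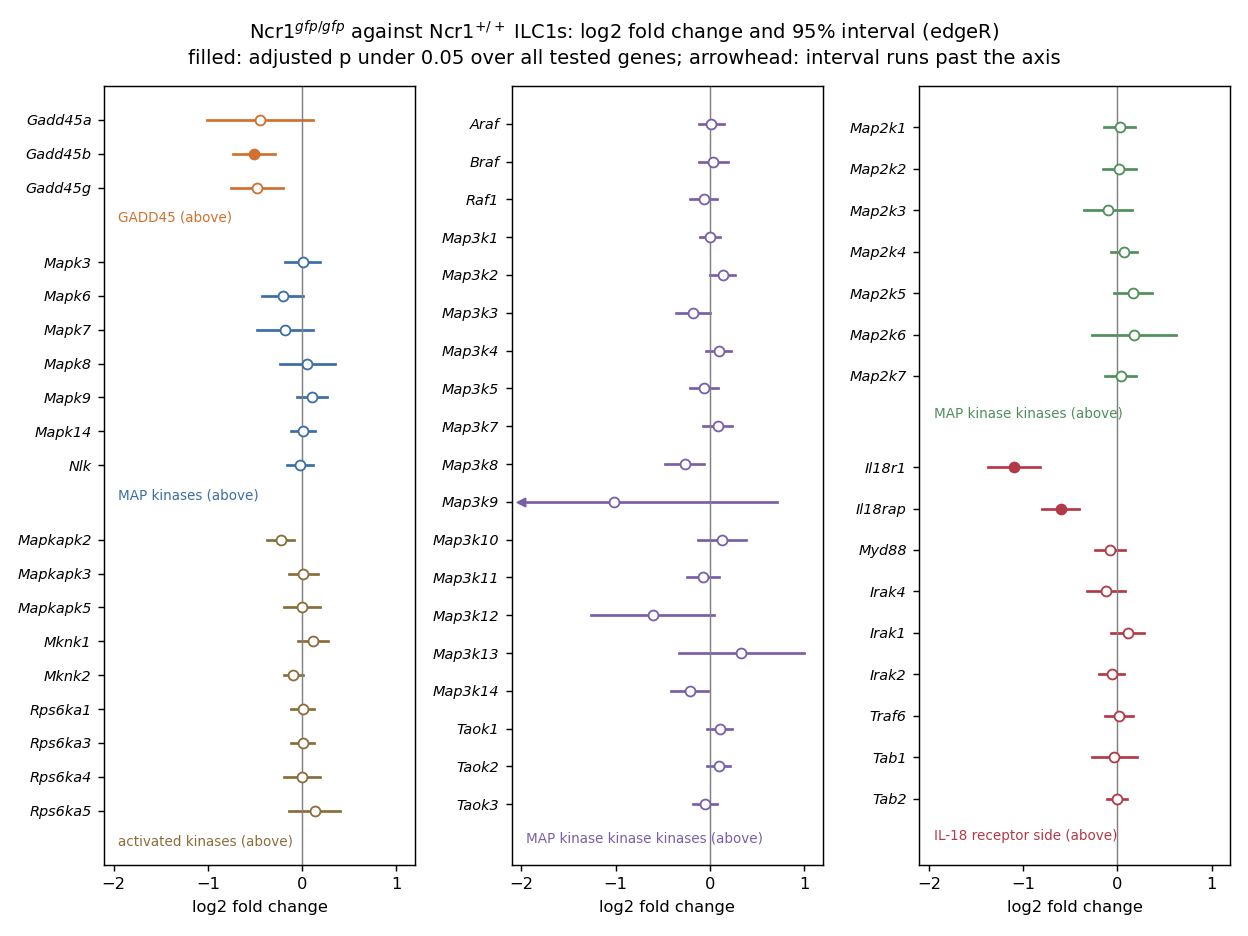
Log2 fold change of Ncr1gfp/gfp against Ncr1+/+ (x axis) with its 95% interval from edgeR for the tested GADD45 genes, genes of the 4 tiers of MAP kinase cascades, and genes from the IL-18 receptor to Tab2. Filled points mark an adjusted p under 0.05 over all genes: Gadd45b (-0.51), Il18r1 (-1.10) and Il18rap (-0.60).

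Genes that act with or after the members were counted in lists that, like the members, were chosen with earlier results of these data known. Of 6 tested binding partners of GADD45 proteins, edgeR, DESeq2, the likelihood ratio test and limma-voom each passed 0, and 0 had an unadjusted p under 0.05. Of 12 tested p53 target genes other than Gadd45a, 5 were lower and 7 higher in Ncr1gfp/gfp. The same tools passed 0 of them, with 3 at an unadjusted p under 0.05 by edgeR, beside 11.4% of all genes. Those were Bax (-0.22), Ccng1 (0.16) and Trp53inp1 (0.17 on the log2 scale), named after their values were seen. Of 7 tested dual-specificity phosphatases that switch MAP kinases off, 4 were lower and 3 higher in Ncr1gfp/gfp. Here edgeR passed 0 and had 3 at an unadjusted p under 0.05, beside 11.4% of all genes. These were Dusp1 (log2 fold change -0.72, adjusted p = 0.0685), Dusp5 (-0.39, adjusted p = 0.0985) and Dusp7 (-0.17), also named afterwards. Dusp5 passed with DESeq2 and limma-voom, and Dusp1 and Dusp5 with the likelihood ratio test. Of 14 transcription factors that MAP kinases phosphorylate, 1 passed with edgeR, beside 1.35% of all tested genes. It was Fos, an immediate early gene, which fell from 155 ± 83.4 to 67.2 ± 25.3 CPM (log2 fold change -1.21, edgeR adjusted p = 0.0377). Fos did not pass with DESeq2 (adjusted p = 0.105) or limma-voom (0.173), the latter passing 0 of the list, but did with the likelihood ratio test (0.0032). Myc, a growth regulator named after its values were seen, did not pass the main edgeR test (log2 fold change -0.30, adjusted p = 0.0902), but passed with DESeq2 (0.0384) and the likelihood ratio test (0.0470). Of the 14 factors, 7 were lower and 7 higher in Ncr1gfp/gfp. At an unadjusted p under 0.05 by edgeR there were 4, beside 11.4% of all genes. Fos and Myc were lower, and Atf2 (0.20) and Atf7 (0.17 on the log2 scale), named afterwards, were higher. With each library dropped in turn, Fos stayed under an adjusted p of 0.05 in 3 of 10 fits.

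Early response and heat shock genes, which cell isolation can induce, were examined beside the GADD45 genes. All 14 tested genes of that list had a negative log2 fold change, beside 49.3% of all tested genes. These ranged from -1.21 for Fos to -0.01 for Egr1, with a median of -0.65. With edgeR 3 passed, beside 1.35% of all tested genes. They were Fos, the AP-1 gene Junb (-0.46, adjusted p = 0.0334) and Zfp36 (-0.58, adjusted p = 0.0179), whose product destabilises cytokine mRNAs. DESeq2 passed 0 of the 14, limma-voom 2 and the likelihood ratio test 5. Their summed level was 4612, 4191, 3245, 3422 and 2103 CPM in Ncr1+/+ replicates 1 to 5. It was 2389, 2612, 2323, 3158 and 2306 CPM in Ncr1gfp/gfp replicates 1 to 5. The groups therefore overlapped, Ncr1+/+ replicate 5 being the lowest of all libraries in this sum. In that library Gadd45b (40.8 CPM) was next to the lowest of Ncr1+/+, Gadd45g (24.8 CPM) was the group median and Gadd45a (3.59 CPM) was the lowest. For Gadd45b and Gadd45g, every Ncr1+/+ library lay above every Ncr1gfp/gfp library, so replicate 5 is not special in that respect. Ncr1+/+ replicates 1 and 2 were the highest in the sum. Replicate 1 held 47.99 CPM of Gadd45b and 27.0 CPM of Gadd45g. Replicate 2, at 39.2 and 22.9 CPM, was the lowest of Ncr1+/+ in both. The part of this list in the GADD45 values was not tested. In bulk RNA, a lower level per cell and fewer cells with the transcript cannot be told apart.

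**Figure D5:**
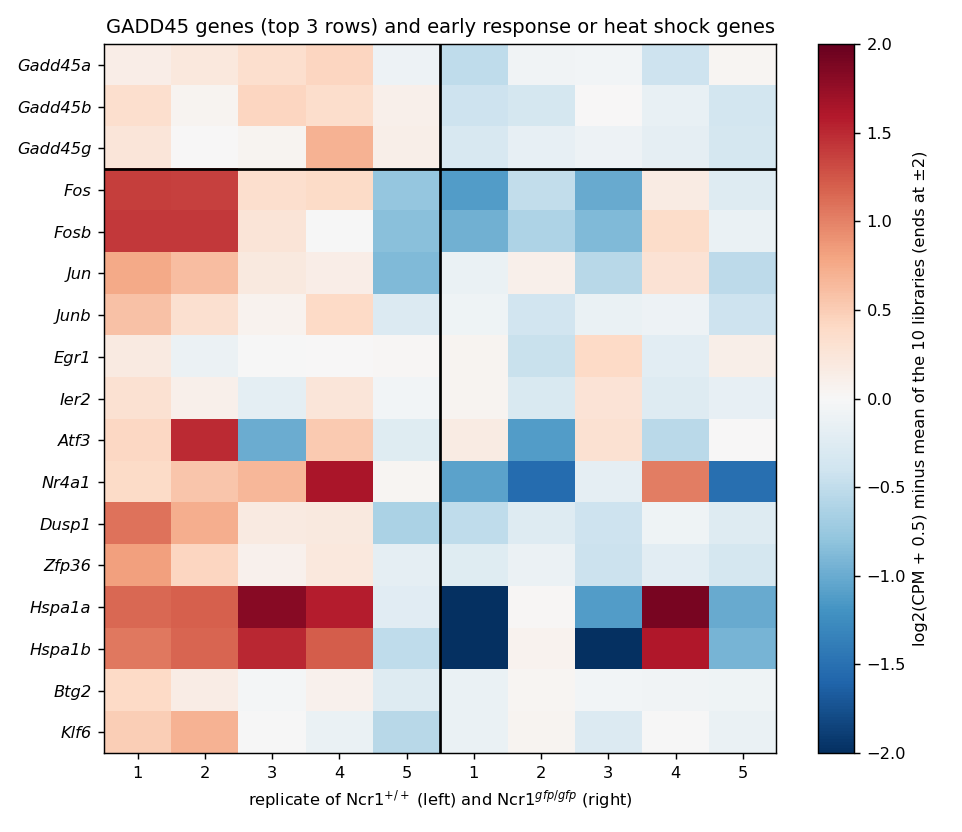
Log2(CPM + 0.5) minus the mean over the 10 libraries (colour, red above and blue below, ending at ±2) for the 3 GADD45 genes (top rows) and 14 early response or heat shock genes (rows) in each library (columns). Ncr1+/+ replicate 5 is at or below the mean for most early response genes, with a sum of 2103 CPM. Its Gadd45b and Gadd45g are above the mean, as in every Ncr1+/+ library, and its Gadd45a is below it. Within Ncr1+/+, its Gadd45b is next to the lowest and its Gadd45a the lowest.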

How the data were processed

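ILC1s were sorted from mouse liver, and 2 ng of total RNA per sample was amplified with a poly(A)-primed low-input kit and sequenced as single reads of 51 cycles. Before deposit the authors ran Trimmomatic and FASTP for trimming, STAR for alignment to mm10 and HTSeq for counting. The deposited table holds raw read counts per gene, without molecular identifiers. Its gene coordinates give member positions other than those of GRCm38, so no positions are printed. Samples were grouped by the genotype in the labels, 5 libraries each. Counts were tested with edgeR 4.0.16 in R 4.3.3 (filterByExpr, TMM, glmQLFit and glmQLFTest on genotype), with Benjamini-Hochberg adjustment over 11463 genes. CPM are TMM-normalized, and levels per kilobase divide by the exon length in the table. Ratios are log2 of counts plus 0.5 within a library. Alternatives used DESeq2 1.42.0, limma 3.58.1, other filters and normalization, a replicate block, and each library left out. The fit was tested on simulated data with planted changes larger than that of any member, so recovery at the sizes seen here was not examined. Members and lists were chosen with earlier results of these data known. By rule, named genes are the members, list genes past an adjusted p of 0.05, the highest gene per length in each kinase tier, and Ncr1. Other genes in the text fall outside this rule, among them those with an unadjusted p under 0.05 and some cell markers. One item is not reported here. Of the list names, Zak, Zfp683 and Ighm had no row of that name.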

Additional observations from a re-analysis of the deposited data

Results flagged for a closer look

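A library was looked at again where its gap to the nearest library of its group was large for a group of 5, a rule that chance meets in about 1 in 20 groups. Of 52 groups examined, 6 met it, where chance gives 2.6. Some groups share the same counts, so the 6 are not independent and an excess was not tested. Gadd45g was at 37.3 CPM in Ncr1+/+ replicate 4, against 27.0 CPM in the next library of that group. Mapk3 was at 109.8 CPM in Ncr1+/+ replicate 5, against 93.8 CPM in the next. Mapk8 was at 17.7 CPM in Ncr1gfp/gfp replicate 1, against 29.1 CPM in the nearest library, and the log2 ratio of Mapk8 to Mapk9 was -2.67 there, against -1.76. The summed hepatocyte markers were 189.6 CPM in Ncr1+/+ replicate 1, against 146 CPM in the next library. They were 216 CPM in Ncr1gfp/gfp replicate 3, also against 146 CPM.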

How the results depend on the processing

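Gadd45b kept its direction in all 18 other fits, from -0.58 to -0.47, and passed in 16 of them; the exceptions left out Ncr1+/+ replicate 3 or 4, which gave 0 members past the test (0 to 1 over the fits that left out a library). DESeq2 passed 3 members, the likelihood ratio test 2 and the fit without a low-count filter 2. Gadd45a (-0.52 to -0.37), Gadd45g (-0.53 to -0.33), Mapkapk2 (-0.26 to -0.18), Mapk9 (0.05 to 0.14) and Map3k4 (0.06 to 0.13) kept their direction when libraries were left out. When 1 library was left out, or Ncr1+/+ replicate 1 and Ncr1gfp/gfp replicate 3 together, log2 fold changes near 0 turned: Mapk3 (-0.098 to 0.067), Mapk8 (-0.047 to 0.175), Mapk14 (-0.028 to 0.032), Map2k2 (-0.037 to 0.087), Map3k1 (-0.013 to 0.027) and Rps6ka1 (-0.037 to 0.037). The log2 ratios of Gadd45b to Gadd45a (-0.147 to 0.038), Gadd45g to Gadd45a (-0.087 to 0.098), Gadd45g to Gadd45b (-0.031 to 0.153) and Mapk8 to Mapk9 (-0.137 to 0.131) also turned. With limma-voom Rps6ka1 was at -0.0020. None of these turned values had passed a test, and the cause was not tested. The ratio of Gadd45a to Map3k4 ranged from -0.646 to -0.464 when libraries were left out, and was -0.60 without Ncr1+/+ replicate 1 and Ncr1gfp/gfp replicate 3 together (exact adjusted p = 0.0571). With each library dropped in turn, Junb passed in 3 of 10 fits, Cd8a in 6, Cd28 in 7 and Zfp36 in 9.

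The 84 called genes became 128 with DESeq2, 131 without a low-count filter, 138 with the likelihood ratio test and 155 without the fold limit. Same-numbered libraries did not deviate together (correlations -0.017 to 0.044 over 5 pairs, with 1 of 10 libraries closest to its own number). These values gave no sign of pairing by number. They cannot show how the samples were processed, and the labels do not say. With a replicate block the count of called genes was 87 and Gadd45b was the member past the test. With the replicate block, the ratios to Map3k4 were -0.55 for Gadd45a (exact adjusted p = 0.125), -0.61 for Gadd45b and -0.55 for Gadd45g (0.0938 each), in a sign-flip test that cannot reach 0.05 with 5 pairs. Depth limits Gadd45a most, at 41 to 108 counts a library.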
